A study of Gallus gallus with 18 samples.

Results

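TAL1, LMO2, KDR, FLI1, RUNX1, HBAD and HBZ are genes of blood and endothelial precursors, and their signals were examined in the primitive streak region of single chicken embryos at Hamburger and Hamilton stage 4 (HH4). The members were all probesets that the platform annotation gives to these 7 symbols. There were 18 such probesets, of 38439 probesets without controls, and the 7 genes were among 13009 that have a probeset of their own. TAL1 had 4 probesets, LMO2 2, KDR 5, FLI1 1, RUNX1 2, HBAD 3 and HBZ 1. A probeset was counted as detected where at least 9 of the 18 embryos had a signal of 129 or more. This signal level stood in for the present calls of the study, which were not used here.

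The study hybridised 1 Affymetrix Chicken GeneChip per embryo to 9 male and 9 female embryos of day 1, to ask which genes differ between the sexes before any gonad forms. The labels give a culture of 3 h outside the egg (EC culture, on filter paper over albumen agar) from just before HH4, whereas the methods give incubation to HH4 before harvest, and which held for each White Leghorn embryo is not clear. Each array stands for a piece of tissue from 1 embryo, 400 micron wide and long. It came from near the front of the streak (70% to 90% of its length), and held lateral epiblast as well as streak. The paper describes the piece as holding prospective somitic mesoderm, neuroectoderm and endoderm, and does not list blood or endothelium. Males are ZZ and females ZW. The authors set the sex of each embryo from the W-linked gene HINTW, called PKCIW in the study, and its signal was 5.08 to 75.1 in the 9 males and 25606 to 32838 in the 9 females. Some embryos had been electroporated with plasmids, and the labels do not name them. The labels give no other difference between the sex groups. The 4 embryos farthest from the median on the first principal component of all tested probesets, which held 17.3% of the variance, were female 9 and males 8, 5 and 6. Their scores were 42.4, 38.0, 33.5 and 22.6, and those of the other 14 embryos ran from -25.7 to 12.2, with a median of -4.39 over all 18. They are called the outlying embryos here, male 6 being the least so, and results are also given without them.

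In the gastrulating chick, blood and endothelium come from mesoderm that leaves the streak and moves out to the extraembryonic and lateral regions, where blood islands form after the stage sampled here. KDR, also called VEGFR2, is the VEGF receptor that marks the mesoderm from which both lineages arise. TAL1, a basic helix-loop-helix factor, and LMO2, a LIM-only bridging protein, sit together in a complex with GATA factors, LDB1 and E proteins that starts the programme. FLI1 is an ETS factor of both lineages, and RUNX1 with its partner CBFB is needed for the later emergence of blood stem cells from endothelium. HBZ and HBAD encode alpha-type globin chains of embryonic red cells and are products of a lineage that has already differentiated. In the RefSeq annotation of GRCg7b they are neighbours on chromosome 14, in the order HBZ, HBAD, HBA1. None of the 7 genes is on a sex chromosome, since TAL1 is on chromosome 8, LMO2 on 5, KDR on 4, FLI1 on 24 and RUNX1 on 1.

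At HH4 KDR, LMO2 and TAL1 each had 1 detected probeset, whereas FLI1, RUNX1, HBAD and HBZ had none. That made 3 of 18 probesets (16.7%), beside 37.8% of all probesets, and 3 of 7 genes (42.9%), beside 60.3% of all genes taken by their best probeset. Detection in these genes was uneven between embryos. None of the 7 reached the level in all 18 embryos, as 50.2% of all genes did, and 5 of 7 (71.4%) reached it in some embryos only, beside 23.8% of all genes. The remaining pair, RUNX1 and HBZ, reached it in no embryo, as did 26.0% of all genes. The tissue is a mixture of cells, so fewer cells of a type and less RNA per cell cannot be told apart. These counts describe the piece taken near the front of the streak, and other regions of the embryo were not sampled.

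**Figure D1:**
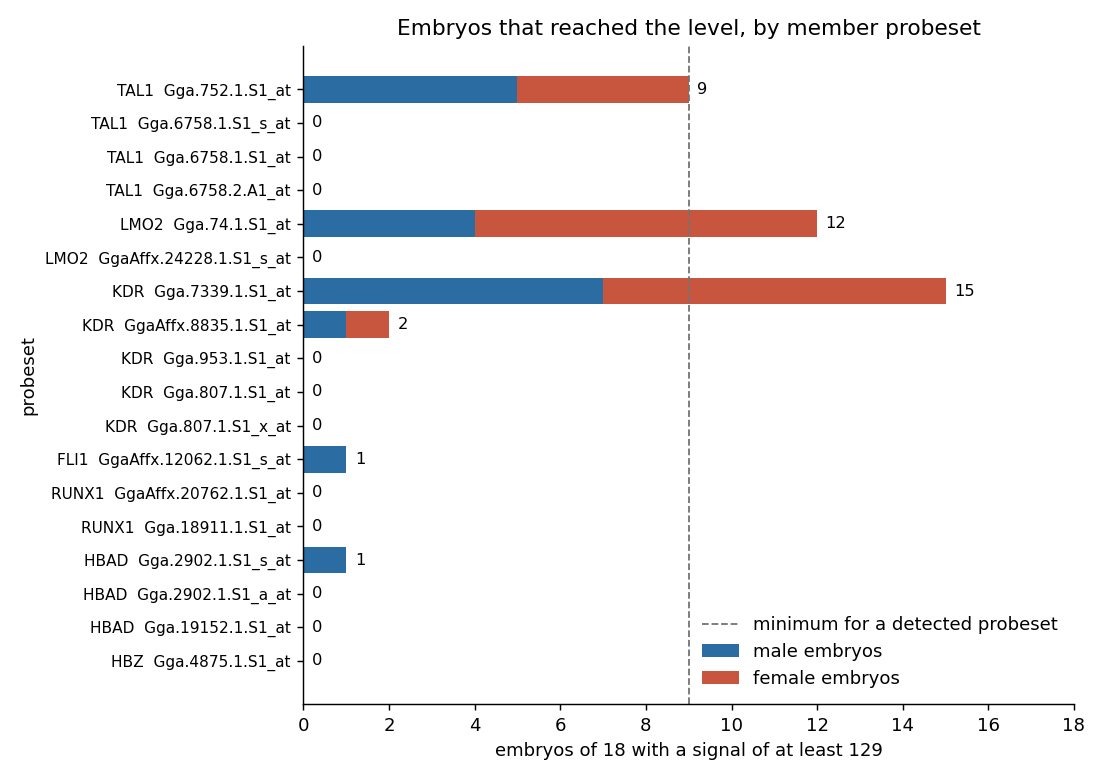
Number of embryos, of 18, with a signal of at least 129 (x axis) for each of the 18 member probesets (y axis), with males in blue and females in red. Only KDR (15 embryos), LMO2 (12) and TAL1 (9) have a probeset at or past the dashed line, which marks the minimum of 9 embryos.

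KDR reached the level in the most embryos. Its probeset Gga.7339.1.S1_at was at the level in 15 embryos, 7 males and 8 females. The lowest, median and highest signals were 106, 366 and 1191 in males and 86.6, 481 and 1723 in females, so the sexes overlapped over almost their whole range. Male 8, male 3 and female 9 were below the level, and the gap around it was wide, with 117 the highest signal below and 204 the lowest above. The highest embryos were male 2 and female 1. A second KDR probeset, GgaAffx.8835.1.S1_at, reached the level in 1 male (132) and 1 female (157, again female 1), with medians of 69.6 in males and 88.2 in females. Apart from female 1 it did not order the embryos as the first did. Males 2, 6 and 9, the highest males on the first, had 63.5, 52.9 and 49.5 on it. Males 3 and 8, the lowest males on the first, had 112 and 110. Later KDR results rest on Gga.7339.1.S1_at alone. The other KDR probesets, Gga.953.1.S1_at, Gga.807.1.S1_at and Gga.807.1.S1_x_at, had highest signals of 78.7, 33.2 and 35.1. Genes with only some of their probesets detected were common on the array, whereas agreement in the order of embryos was not measured over it. Of 489 genes with 5 probesets, 132 (27.0%) had exactly 1 detected, and 376 (76.9%) had some but not all.

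LMO2 was detected with Gga.74.1.S1_at in 12 embryos, 4 males and 8 females. Signals ran from 72.2 over a median of 115 to 303 in males, and from 23.5 over a median of 289 to 486 in females. Males 2, 3, 4 and 7 reached the level and the other 5 males lay between 72.2 and 115. Among females only female 9, at 23.5, lay below it, and that was also the lowest of all 18 embryos. The nearest signals on either side of the level were 115 and 138. Of the 3472 probesets at the level in 9 to 17 embryos, 2.53% had at least 4 more females than males there, as LMO2 had. That excess and its direction were taken from LMO2 itself. Probesets at the level in nearly all embryos could not show it, so the share does not measure how rare the LMO2 split is. A second LMO2 probeset, GgaAffx.24228.1.S1_s_at, had a highest signal of 50.4.

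TAL1 only just met the rule, with Gga.752.1.S1_at at the level in exactly 9 embryos, 5 males and 4 females. The lowest, median and highest signals were 46.2, 139 and 195 in males and 67.9, 120 and 239 in females. The values lay close around the level, from 123 just below to 139 just inside, and 1 embryo fewer would have left the gene undetected. The other TAL1 probesets, Gga.6758.1.S1_s_at, Gga.6758.1.S1_at and Gga.6758.2.A1_at, reached at most 55.6, 47.1 and 43.6. Signals of different probesets depend on their probes, so those of TAL1 were set only against the level.

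**Figure D2:**
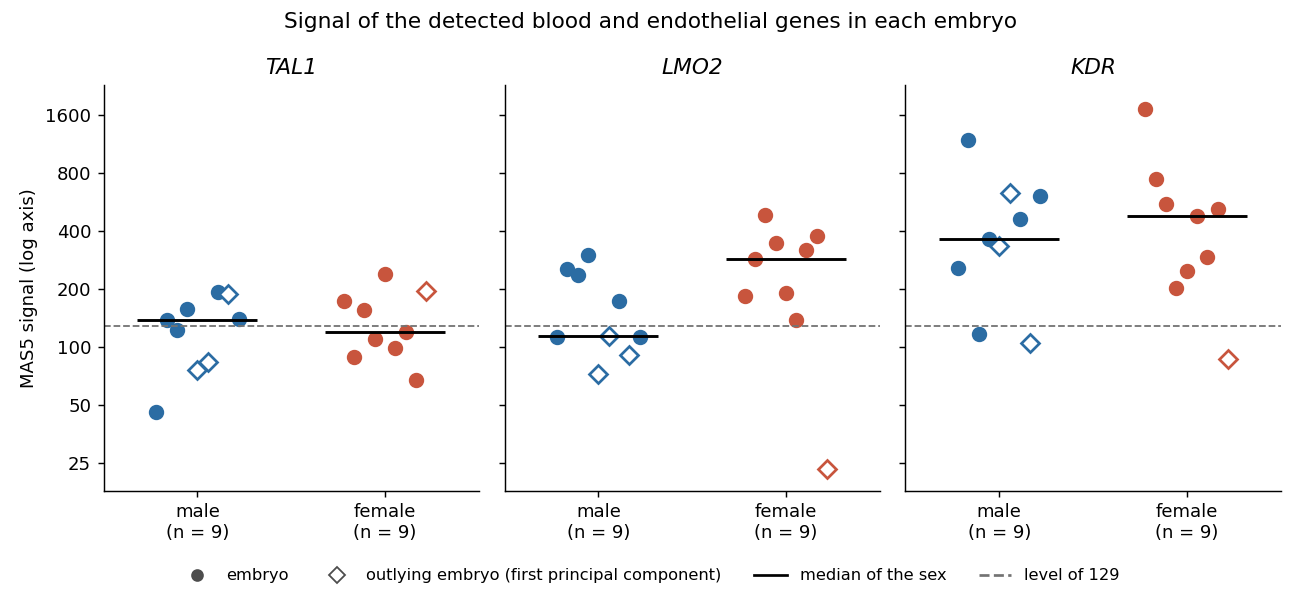
MAS5 signal on a log axis (y) of the detected probeset of TAL1, LMO2 and KDR in each of 9 male (left) and 9 female (right) embryos. Black bars are medians, the dashed line is the level of 129, and open diamonds are the 4 embryos farthest from the median on the first principal component of all tested probesets. TAL1 lies on both sides of the level in each sex, LMO2 is below it in 5 males and 1 female, and KDR is below it in 2 males and 1 female.

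FLI1 had a single probeset, GgaAffx.12062.1.S1_s_at, and it reached the level in 1 embryo, male 8, at 237. The lowest and median signals were 11.6 and 70.4 in males and 13.5 and 48.9 in females. The highest female, female 1, had 128.942 and so stood a fraction below the level. RUNX1 was below the level in every embryo with both probesets. GgaAffx.20762.1.S1_at had 25.8, 47.9 and 100.005 in males as lowest, median and highest, and 5.48, 27.5 and 62.0 in females, and Gga.18911.1.S1_at reached at most 55.7.

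The HBAD and HBZ probesets were below the level in all but 1 embryo. HBAD, the alpha-D globin, reached the level once, in male 3 at 148 with Gga.2902.1.S1_s_at. The medians of that probeset were 21.1 in males and 21.5 in females, and its next highest embryo was female 1, at 118. The other HBAD probesets, Gga.2902.1.S1_a_at and Gga.19152.1.S1_at, had highest signals of 44.4 and 21.8. HBZ, the embryonic alpha-type chain called pi in chicken, had 4.55, 22.1 and 62.0 in males and 4.42, 13.2 and 61.5 in females as lowest, median and highest with Gga.4875.1.S1_at. Of the 15 member probesets that did not pass, 12 had no embryo at the level.

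**Figure D3:**
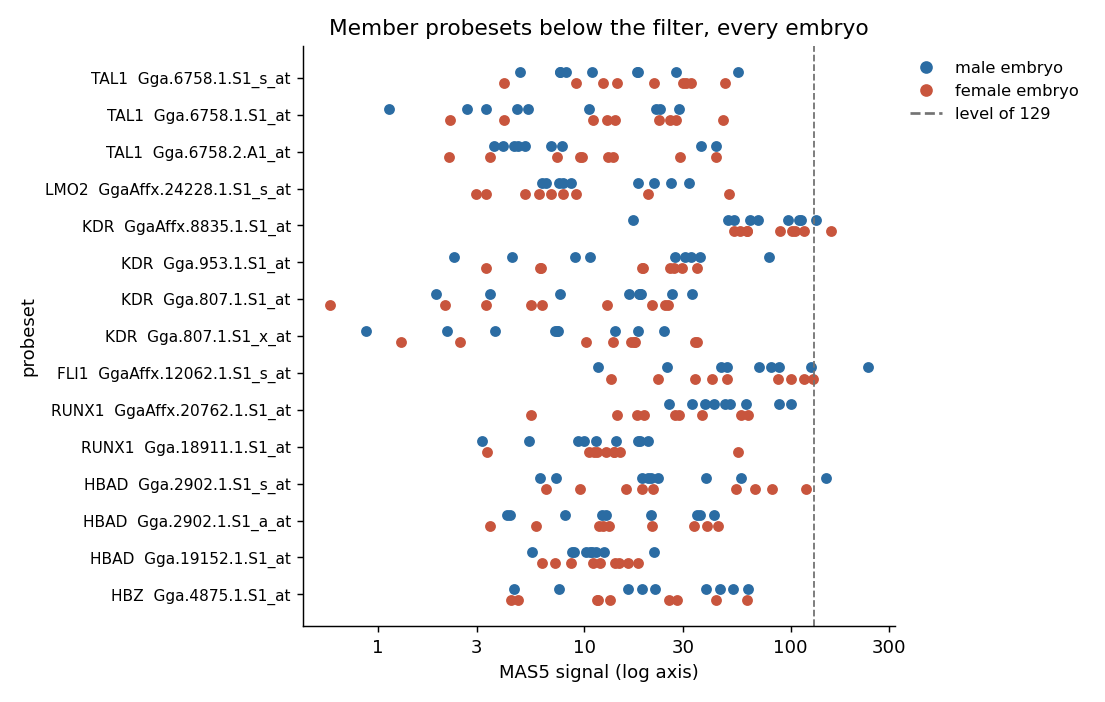
MAS5 signal on a log axis (x) of the 15 member probesets (y axis) that reached 129 in fewer than 9 embryos, with 1 point per embryo, males in blue above females in red. The 4 points right of the dashed line are 2 embryos of KDR GgaAffx.8835.1.S1_at, 1 of FLI1 and 1 of HBAD.

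The design asks whether genes differ between the sexes, and none of the detected members was called. The test was limma on log2 signals of the 14540 detected probesets, with Benjamini-Hochberg adjustment. It called 402 probesets, 2.76% of those tested, with 361 (2.48%) higher in males and 41 (0.282%) higher in females. Of the 3 member probesets tested, 0 were called, and 0 had an unadjusted p under 0.05 (0.618 for TAL1, 0.297 for LMO2 and 0.755 for KDR). A SAM-type test, the kind of test the study used, called 0 of them and 399 probesets in all. An exact two-sided permutation test over all splits of the 18 embryos was also run for each member.

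TAL1 averaged 128 ± 50.9 in males and 139 ± 56.0 in females (SD, n = 9 each). The log2 difference, male minus female, was -0.14 ± 0.28 (SE), with a 95% interval of -0.73 to 0.45, a limma adjusted p of 0.954 and an exact p of 0.642. KDR averaged 454 ± 335 in males and 540 ± 488 in females (SD, n = 9 each). Its log2 difference was -0.16 ± 0.52 (SE), with an interval of -1.25 to 0.92, a limma adjusted p of 0.976 and an exact p of 0.772. Single embryos set the sign of both values. The KDR difference was 0.035 without male 3, 0.053 without male 8 and 0.10 without female 1, and the TAL1 difference was 0.025 without male 1.

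LMO2 averaged 164 ± 82.4 in males and 262 ± 141 in females (SD, n = 9 each). The log2 difference was -0.49 ± 0.46 (SE), with an interval of -1.46 to 0.47, a limma adjusted p of 0.870 and an exact p of 0.348. Female 9, the lowest embryo, moved this value by more than 1.5 times. Without it the difference was -0.89 ± 0.30 (SE), with an unadjusted limma p of 0.0092 and an adjusted p of 0.210, which also missed the threshold. That p was the lowest of the 18 fits that each left out 1 embryo. Leaving out the lowest embryo of the higher sex could only enlarge the difference, so this fit is no evidence for one. Without all 4 outlying embryos, the differences were -0.55 for LMO2, -0.28 for KDR and -0.00040 for TAL1. Their limma adjusted p were 0.620, 0.923 and 0.9998. The same 3 members were detected there with the minimum lowered to 7 of the 14 embryos left, which TAL1 only just met. The median of the 3 log2 differences over all 18 embryos was -0.16, beside -0.0084 for all tested probesets. No fold is given for FLI1, RUNX1, HBAD and HBZ, since nearly all embryos of both sexes were below the level. In a fit of all probesets without the filter, the lowest unadjusted p of the 18 was 0.019, for RUNX1 GgaAffx.20762.1.S1_at, with a limma adjusted p of 0.617 and every signal below the level.

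The detected members varied more between embryos of 1 sex than most probesets did. The within-sex SD of log2 signal was 1.19 for KDR, 1.06 for LMO2 and 0.64 for TAL1, beside a median of 0.303 over the 14540 tested probesets. An SD as large was found in 0.983% of these probesets for KDR, 1.58% for LMO2 and 8.03% for TAL1. Low signals vary more on the log scale, and among probesets within 0.5 log2 units of the same mean these shares were 0.689%, 1.86% and 23.9%. Without the 4 outlying embryos the SD was 1.05 for KDR, 0.61 for LMO2 and 0.64 for TAL1.

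Every embryo had at least 1 of the 3 detected members at the level, and these members were kept for reaching it in at least 9 embryos. All 3 were at it in 6 embryos (3 males, 3 females), 2 of them in 6 (1 male, 5 females) and 1 of them in 6 (5 males, 1 female). The sex counts carry the LMO2 numbers of 4 males and 8 females, and no such count was made for other genes. The members did not rise and fall together to a degree that the tests could show. With the mean of each sex removed, LMO2 and KDR had a Pearson r of 0.41 over 18 embryos (permutation p = 0.098, adjusted over the 3 pairs p = 0.294) and a Spearman rho of 0.30 (permutation p = 0.226, adjusted p = 0.636). Leaving out the 2 embryos farthest from the LMO2 median, female 9 and female 3, brought r to 0.043. Leaving out the 2 farthest from the KDR median, female 9 and female 1, brought it to 0.16. The value thus depended on few embryos. TAL1 and LMO2 had r = -0.11 (permutation p = 0.663) and rho = 0.0031 (p = 0.993), and r = -0.11 without 2 embryos. TAL1 and KDR had r = -0.14 (permutation p = 0.569) and rho = -0.20 (p = 0.424), and r = -0.22 without 2 embryos. For both pairs the adjusted p of r was 0.663, and the adjusted p of rho was 0.993 for TAL1 and LMO2 and 0.636 for TAL1 and KDR. Without the 4 outlying embryos, r changed sign in each pair, to -0.11 for LMO2 and KDR, 0.097 for TAL1 and LMO2 and 0.16 for TAL1 and KDR. Within males and within females, r was 0.20 and 0.53 for LMO2 and KDR, 0.40 and -0.46 for TAL1 and LMO2, and -0.023 and -0.27 for TAL1 and KDR.

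LMO2 was below the level in all 4 outlying embryos, at 72.2, 115 and 91.6 in the males and 23.5 in the female, whereas 12 of the other 14 embryos reached it, with a median of 246 and a range of 113 to 486. For KDR, 2 of the 4 and 13 of the other 14 embryos were at the level, with medians of 221 and 473. For TAL1 the numbers were 2 of 4 and 7 of 14, with medians of 137 and 131. LMO2 itself enters the component, and no test was made between these sets of embryos.

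The summed signals of other tissue markers are given beside this, and their part in the low LMO2 signal was not tested. Each sum adds the brightest probeset of each gene, undetected genes included, and the strongest of them weigh most. The sums do not measure amounts of tissue. Streak and mesoderm markers (9 of 10 genes detected) summed to 52338 to 85542 in the 4 embryos and 75643 to 101378 in the other 14. Node and endoderm markers (4 of 7) summed to 17071 to 38020 in the 4 and 9353 to 21794 in the others. SOX17 alone had 8506 to 22706 over the 18 embryos. CER1 and GSC, at the level in only 6 and 4 embryos, reached at most 7707 and 3319. SHH, a defining node gene, was below the level in all 18 embryos. Lateral and extraembryonic mesoderm markers (3 of 9) summed to 4113 to 13277 in the 4 and 3431 to 6667 in the others, with HAND1, HAND2, FOXF1 and TBX20 below the level in every embryo. Epiblast and neural plate markers (5 of 6) summed to 39297 to 50016 in the 4 and 36777 to 51769 in the others. Within-sex SD was taken from the most variable detected probeset of each gene. It was largest for FGF8 (1.33), EOMES (0.95), TBX6 (0.76) and MSGN1 (0.74) in the streak list. In the epiblast list the genes were OTX2 (1.14), SOX3 (0.60), EPCAM (0.50) and CDH1 (0.32). In the node list they were CHRD (1.49), SOX17 (0.58), NOG (0.50) and FOXA2 (0.37), and in the lateral list GATA6 (1.52), GATA5 (0.61) and MSX1 (0.52). The brightest probesets of EPCAM and SOX17 had only 0.13 and 0.29. TBXT, the T-box gene that defines the streak, was at 21977 or more in all 18 embryos. None of the probesets of these 4 marker lists was called between the sexes.

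For each detected member, the 3 genes with the most similar pattern were listed by Pearson r over the 18 embryos, with sex means removed, among 7844 other detected genes taken by their brightest probeset. These are picked as the highest of many, so no p is given. LMO2 was closest to MAB21L2 (r = 0.90, rho = 0.94), ADGRG6 (r = 0.89, rho = 0.75) and HOXB1 (r = 0.89, rho = 0.82). ADGRG6 is an adhesion G protein-coupled receptor and HOXB1 a homeobox gene. Female 9 was the lowest embryo for all 3, with 124 for MAB21L2, 41.7 for ADGRG6 and 4071 for HOXB1, against medians over all embryos of 418, 260 and 13538. Without the 4 outlying embryos, r was 0.85 for MAB21L2, 0.65 for ADGRG6 and 0.68 for HOXB1 over 14 embryos. By the same measure KDR stood at place 1201 and TAL1 at place 5125 of the 7844 genes.

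**Figure D4:**
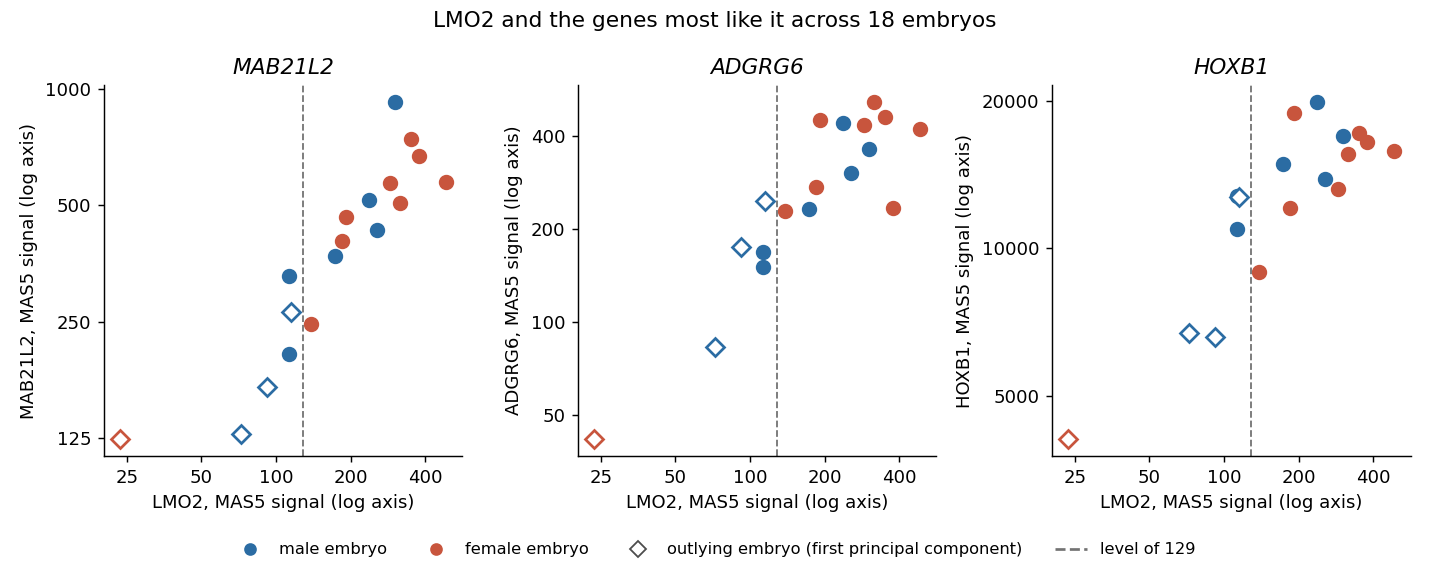
LMO2 signal (x axis) against the signal (y axis) of the 3 genes most like it, MAB21L2, ADGRG6 and HOXB1, in 18 embryos, all on log axes. Male embryos are blue, female embryos red, and open diamonds are the 4 outlying embryos. Female 9 is the lowest embryo in each panel.

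KDR was closest to OMA1 (r = 0.78, rho = 0.75), MCM3 (r = 0.74, rho = 0.73), a subunit of the replication helicase, and PICALM (r = 0.73, rho = 0.67), a clathrin adaptor. Without the 4 embryos these r were 0.79, 0.64 and 0.51. TAL1 was closest to CDIP1 (r = 0.74, rho = 0.61), ITGA4 (r = 0.70, rho = 0.40), an integrin subunit, and C21orf91 (r = 0.70, rho = 0.52). Without the 4 outlying embryos these r were 0.84, 0.77 and 0.65. Male 1 and female 8 had the lowest TAL1 signals, and without these 2 alone the r were 0.47, 0.33 and 0.44. Leaving out the 2 embryos farthest from the median of LMO2 or KDR in the same way gave 0.76 to 0.93 for the genes of LMO2 and 0.63 to 0.79 for those of KDR.

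The wider pathway was described with lists of further genes. Of 20 other blood transcription factors and cofactors with a probeset, 8 were detected (40.0%, beside 60.3% of all genes). The list held 27 genes, and those without a probeset of their own, GATA1, LYL1, ETV2, NPAS4L and KLF1 among them, were not measured. The 8 detected genes included partners of the members, namely the E proteins TCF3 and TCF12, which pair with TAL1, and CBFB, which pairs with RUNX1. The others detected were the ETS factors ETS1, ETV6 and ELF1, with LMO4 and HHEX. The remaining genes of the list were not detected. GATA2, LDB1, ERG, ETS2, MYB, SPI1, GFI1B, MECOM, ZFPM1 and CBFA2T3 had no embryo at the level, GATA2 with a highest signal of 127, and IKZF1 and MEIS1 had 1 and 6. Among the 8, by the most variable detected probeset of each, the largest within-sex SD were those of HHEX, TCF12, ELF1 and LMO4. They were 1.24 (signals 307 to 5611), 0.65, 0.54 and 0.49. The brightest probesets of TCF12 and LMO4 had only 0.13 and 0.18. No probeset of the list was called between the sexes, and the median of its 15 log2 differences was -0.16.

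Of 26 further endothelial and VEGF pathway genes, 23 had a probeset and 9 of these were detected (39.1%). The growth factor VEGFC, its receptor FLT4, the co-receptors NRP1 and NRP2 and the ligand APLN were detected, with ESAM, EGFL7, SOX7 and AGGF1. TEK, TIE1, CDH5, PECAM1, CLDN5, EMCN, ROBO4, ANGPT1 and VEGFD had no embryo at the level, ENG had 1 and ANGPT2 had 3. FLT1, which binds the same ligand as KDR, was at the level in 3 embryos, VEGFA, that ligand, in 7 and SOX18 in 6. SOX7, ESAM, EGFL7 and AGGF1 had the largest within-sex SD (0.63, 0.57, 0.54 and 0.50), by the most variable detected probeset of each. The AGGF1 value is that of Gga.12609.1.S1_at, and the brightest AGGF1 probeset had 0.081. In the study most male-biased probesets were on the Z chromosome. AGGF1, an angiogenic factor on that chromosome, was the only gene called in the blood and endothelial lists. Its probeset Gga.10730.1.S1_at averaged 1770 ± 95.6 in males and 1175 ± 69.3 in females (SD, n = 9 each), a log2 difference of 0.59 ± 0.059 (SE, limma adjusted p = 2.07e-06). Its other probesets, GgaAffx.2674.1.S1_s_at and Gga.12609.1.S1_at, had log2 differences of 0.40 and 0.48 and did not pass, with adjusted p of 0.260 and 0.552. The median of the 12 log2 differences of this list was 0.042.

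Of 23 other globin and red cell genes, 15 had a probeset and 6 of these were detected (40.0%). HBBA and ALAS2 were among those not measured. TFRC, the transferrin receptor, EPB41, a membrane skeleton protein, and UROD, a haem synthesis enzyme, are used by many cell types and were at the level in all 18 embryos. ANK1 and CA2 were at it in 10 and 11, with within-sex SD of 0.67 and 0.61. HBE, a beta-type globin by its platform symbol, was at it in 17 embryos, with signals of 160 to 331 in males and 109 to 332 in females (log2 difference -0.081 ± 0.20 SE, limma adjusted p = 0.967). The alpha-type chains were not detected, HBA1 with a highest signal of 104. HEMGN was at the level in 5 embryos and EPB42 and FECH in 1 each, and SLC4A1, RHAG, SPTB, TSPO2 and GYPC had none there. No probeset of this list was called, and the median of its 7 log2 differences was 0.0065.

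**Figure D5:**
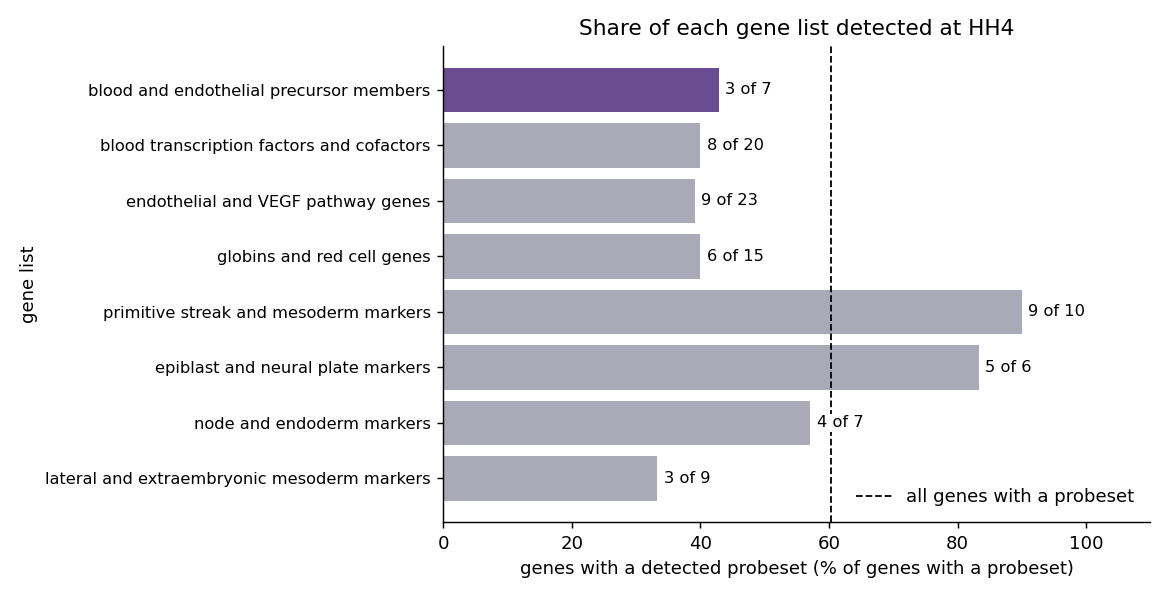
Share of genes (x axis, percent of genes with a probeset of their own) that had a detected probeset in each gene list (y axis), with the number of genes beside each bar. The members and the 3 blood, endothelial and red cell lists lie between 39.1% and 42.9%, the streak list is at 90.0%, and the dashed line marks 60.3% of all genes.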

How the data were processed

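The authors extracted total RNA from each embryo, amplified it in 2 cycles, hybridised it to 1 array and deposited MAS5 signal intensities (Bioconductor, affy), with every array brought to 500 as its 2% trimmed mean. The 96 control probesets were left out. Genes were named from the platform annotation. It gives 1 gene to 27168 probesets, 26853 of them matched to RefSeq (GRCg7b), several to 177 and none to 11094. Signals were taken to log2 with no constant added and tested with limma 3.58.1 in R 4.3.3 (permutations in numpy 2.4.6). Filter, level and threshold (adjusted p under 0.05) are given in the report. A SAM-type permutation test was an alternative. Both were tested on simulated data. Replicates are separate embryos. The authors' differential lists were not used.

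All members, their probesets, genes of the lists called between the sexes, the 4 detected genes of each list with the largest SD and the 3 genes most like each detected member were named. Members and lists were chosen with earlier results of these data known. Alternatives changed the level, the number of embryos, the log constant, the normalization, weights, the replicate block and the embryos included.

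The 18 embryos reached the level with 13804 to 15263 probesets each, and the median signal of tested probesets was 596 to 632. Arrays hold no read counts, so their number limits the precision.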

Additional observations from a re-analysis of the deposited data

Results flagged for a closer look

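Of 12 groups of embryos of 1 sex examined (the member probesets that reached the level in any embryo), 2 held an embryo far from the others. Chance flags about 1 in 20 such groups if log2 signals are normally distributed, which was not tested. LMO2 Gga.74.1.S1_at in female 9 had 23.5, and the next lowest female had 138. KDR GgaAffx.8835.1.S1_at, a probeset below the filter, had 17.2 in male 5, and the next lowest male had 49.5. Both embryos are among the 4 farthest from the median on the first principal component, and the reason was not tested.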

How the results depend on the processing

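The number of members detected was 3 with a minimum of 6 embryos. It was also 3 without the 4 outlying embryos, where the minimum was 7 of 14 and TAL1 had exactly 7. Taking only the brightest probeset of each gene could not change the number, since each detected member probeset was already the brightest of its gene. With the minimum of 6, 63.2% of all genes were detected. The number of members was 0 where all 18 embryos had to reach the level, as 50.2% of all genes did. It was 1 (KDR) at a level of 258, 4 (with FLI1) at a level of 64.5 and 2 after quantile normalization, where TAL1 dropped below the filter. For these last settings the share of all genes was not counted, so they show nothing particular to the members. No member probeset was called under any alternative fit, while all calls numbered 319 to 408. Replicate numbers did not pair the embryos. Deviations of same-numbered males and females correlated from -0.238 to 0.208, 4 of 9 pairs were over 0.1 and 3 of 18 embryos were closest to their own number. A replicate block called 358 probesets and 0 members, with LMO2 at an adjusted p of 0.781.

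Leaving out single embryos gave log2 differences (male minus female) of -0.26 to 0.025 for TAL1, -0.89 to -0.34 for LMO2 and -0.44 to 0.10 for KDR, with 0 members called in each fit. The sign turned for TAL1 without male 1 (0.025) and for KDR without male 3 (0.035), male 8 (0.053) and female 1 (0.10). TAL1 and LMO2 had rho = 0.0031 where r was negative, and without the 4 embryos r was 0.097 for that pair, 0.16 for TAL1 and KDR and -0.11 for LMO2 and KDR. The within-sex SD of LMO2 was 0.61 without them. The cause of these changes was not tested. Low signals limit what TAL1, LMO2, FLI1, RUNX1, HBAD and HBZ can show.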
